A study of Zea mays with 137 samples.

Results

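A set of 53 maize genes was silent in every diploid leaf mean of the series and was on in at least 2 of the 33 aneuploid combinations. Silent meant below 0.5 FPKM (fragments mapped to a gene, scaled to gene length and to library size) in all 9 diploid means, and on meant a mean of at least 2 FPKM. The genes lie on chromosomes 2, 7, 8 and 10, none of which carried a varied arm, so the set is in *trans* to every dosage change studied. Chromosomes 2, 7, 8 and 10 hold 14725 of the 41448 genes in the tables, and 6669 of them were silent in all diploid means. The 53 genes were thus 0.795% of the silent ones, and another 54 silent genes were on in exactly 1 combination. Because the same means chose the genes, all levels below are a description and carry no test.

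Leaf RNA of 45-d-old greenhouse plants of the inbred line W22 was sequenced from 137 plants, 108 aneuploid and 29 diploid. Each combination changed the dose of both arms of a pair (6L+9S, 5L+6L, 4L+6L, 1S+9L, 1L+5S, 4L+5L, 1L+3L, 3L+5L or 3L+4L), using B-A translocations, in which a chromosome arm is joined to the supernumerary B chromosome. There were 9 double trisomies (an extra copy of both arms), 6 double monosomies (both arms in a single copy), 15 combinations of trisomy with monosomy, and 3 of tetrasomy (2 extra copies of an arm) with trisomy. Combinations held 1 to 5 plants, and each tetrasomy combination was a single plant. Every pair of arms had its own diploid controls, 2 to 4 plants, grown from the same crosses. By the karyotype list of the study, all 4 controls of 1L+3L, 1 of the 4 of 5L+6L and both of 6L+9S were euploid carriers of a B-A translocation rather than plants without one. That list and the sample labels also give opposite karyotypes for 1 of the 4 plants of monosomy 1S+trisomy 9L, which is kept here as labelled.

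Genes in *cis* lie on the arm whose dose is altered, and genes in *trans* lie elsewhere, on chromosome regions whose dose is not altered. B-A translocations are used in maize because the B centromere often fails to separate at the second pollen mitosis, which yields sperm with an additional copy of the arm or with none. A gene that is not transcribed in the leaf of a normal plant may still be active in other organs, in certain cell types or under stress. The files give W22 identifiers only, and 0 of the 53 were found in the reference gene table, so no function is assigned to any gene of the set. In RNA of leaf tissue, more cells of a type and more RNA per cell cannot be told apart.

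The deposited tables hold 1 mean per group and no value per plant, so neither the spread between plants nor the depth of each library can be read from them. The study states only an average number of reads per sample. Means of different pairs come from separately normalized tables. Summed over all genes, the group means ranged from 570672 to 654278 FPKM. The leaf gene Zm00004b018833, which encodes the photosystem II reaction centre W protein, lay between 601 and 1465 FPKM in the 9 diploid means. In the combinations it ran from 115 FPKM in monosomy 3L+trisomy 4L to 1425 FPKM in monosomy 6L+trisomy 9S. The study's tissue list carries the note rib or mid-rib for 9 plants of 6 combinations, and their counts are given separately below.

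Levels of the 53 genes in the diploids were close to the bottom of the scale. The median of the 477 diploid means (53 genes in 9 groups) was 0.0372 FPKM, the highest was 0.486 FPKM, and 180 were listed at 0. Only 1 gene was listed at 0 in all 9. The sum over the 53 genes was 9.45 FPKM in the controls of 3L+5L and 3.19 to 6.08 FPKM in those of the other 8 pairs. Of the 1749 aneuploid means, 174 were at or above 2 FPKM, 295 lay from 0.5 to below 2 FPKM and 1280 were below 0.5 FPKM, including 473 listed at 0. Most activations were therefore of modest height, with 51 means at 5 FPKM or more and 20 at 10 FPKM or more. A level of 5 FPKM was reached by 28 genes and 10 FPKM by 11. The number of combinations in which a gene was on was 2 for 25 genes, 3 for 9, 4 for 11, 5 for 1, 6 for 3, 7 for 3 and 9 for 1, so the minimum that the rule asks for was also the most frequent number.

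Just inside the limits, the second highest aneuploid mean was 2.00 FPKM for Zm00004b007068 and 2.01 FPKM for Zm00004b027979. Just outside it was 1.97 FPKM for Zm00004b034698 and 1.96 FPKM for Zm00004b027419. The highest diploid mean was 0.486 FPKM for Zm00004b024679 and 0.474 FPKM for Zm00004b039110 inside, against 0.505 FPKM for Zm00004b027216 and 0.521 FPKM for Zm00004b025118 outside. No gap in the values marks the edges of the set.

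**Figure D1:**
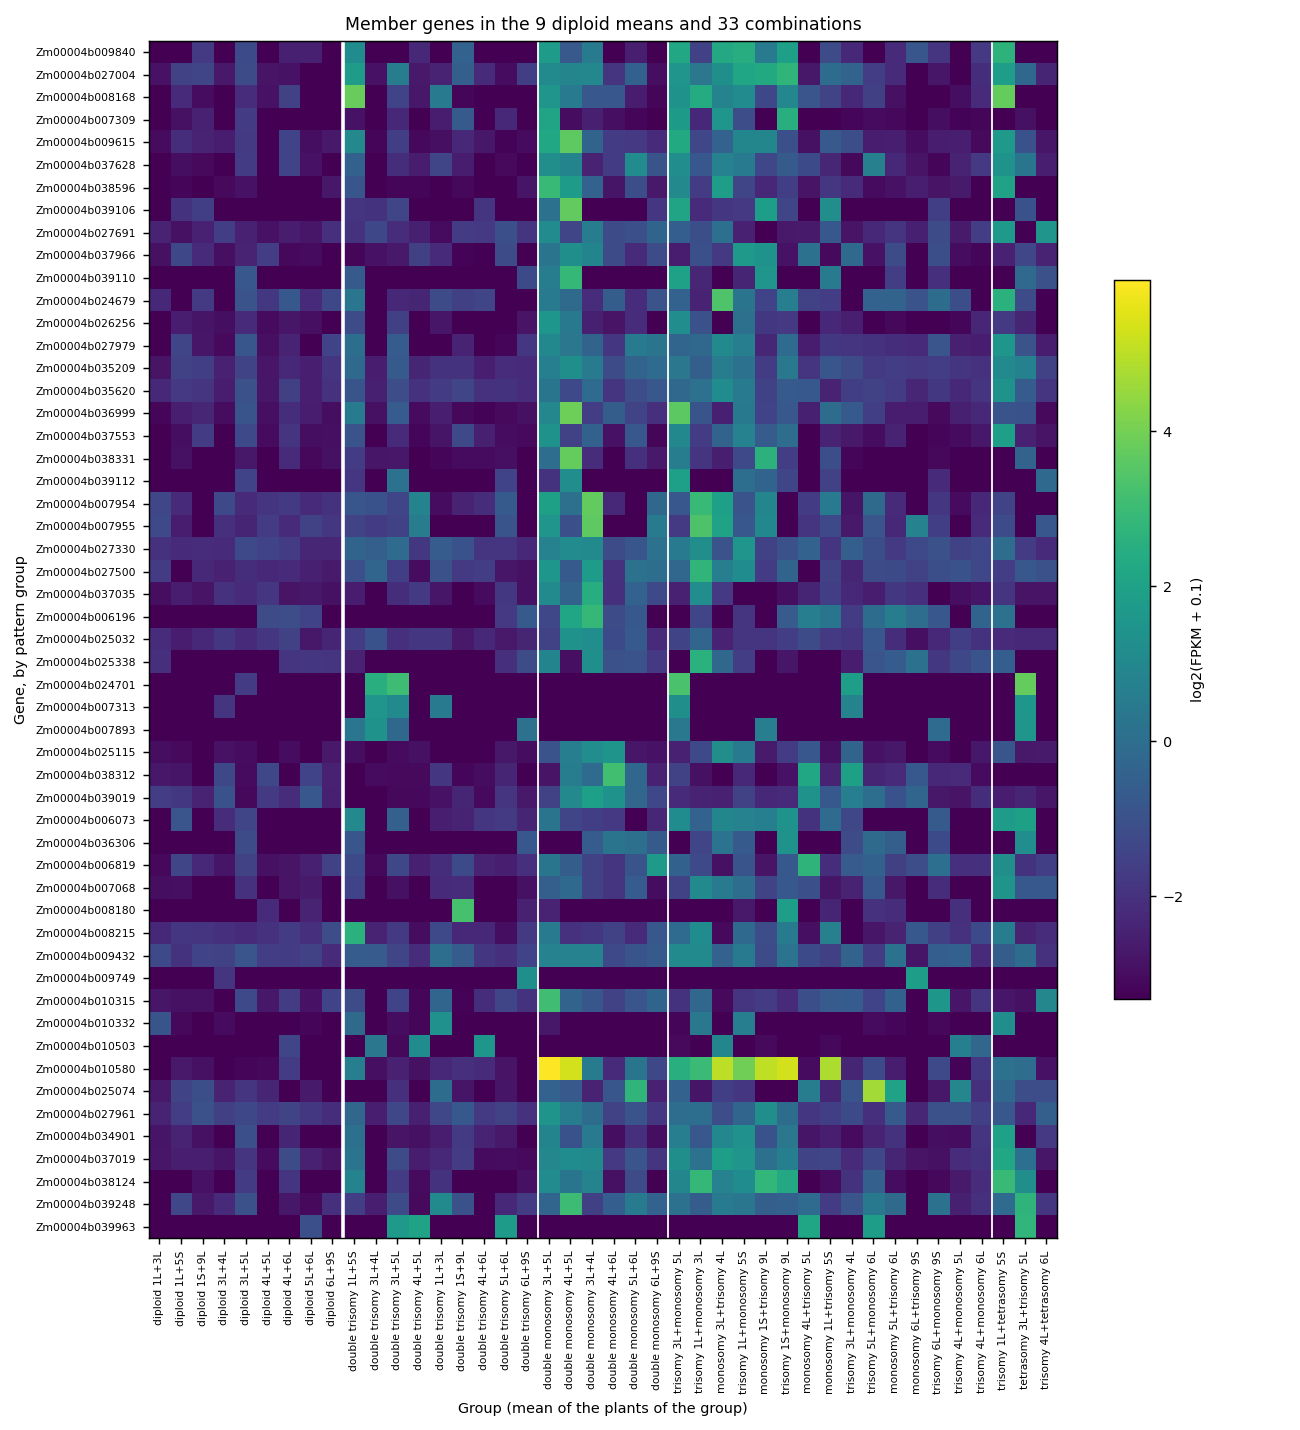
Mean level of each of the 53 genes, as log2(FPKM + 0.1), in the 9 diploid groups (left of the thick line) and in the 33 combinations, which are divided by thin lines into double trisomies, double monosomies, trisomy with monosomy and tetrasomy with trisomy. Rows are ordered by pattern group, and bright cells are spread over many rows in a few columns, while the columns of double trisomies are mostly dark.

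The genes came on unevenly across the combinations. The number on ranged from 0 in trisomy 4L+monosomy 5L and trisomy 4L+monosomy 6L to 19 in trisomy 1L+tetrasomy 5S, with a median of 2 over the 33. The 7 combinations with the most genes on held 103 of the 174 on values, and 45 of the 53 genes were on in at least 1 of them. These 7 were trisomy 1L+tetrasomy 5S (19 genes), double monosomy 3L+5L and trisomy 3L+monosomy 5L (17 each), double monosomy 4L+5L (15), trisomy 1L+monosomy 3L and monosomy 3L+trisomy 4L (12 each) and double monosomy 3L+4L (11). Among all silent genes the numbers on were 28, 28, 21, 20, 19, 12 and 14 in the same order, of 228 on values in the 33 combinations. The 174 on values of the set are part of these 228, so the likeness of the lists was largely fixed in advance. Nothing is read from it. By pair of arms, the combinations of 3L+5L had between 3 and 17 genes on. No combination of 6L+9S had more than 1 and none of 5L+6L more than 2.

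Few of the genes were on in double trisomies. In double trisomy 1L+5S 4 genes were on, with 3 each in double trisomies 3L+4L and 3L+5L, 2 for 4L+5L, and 1 each for the other 5, a median of 1 (1.89% of the set). Of all 6669 silent genes, the corresponding background was 0.0600% in double trisomy 1L+5S, 0.0450% for each of 3L+4L and 3L+5L, 0.0300% for each of 4L+5L and 4L+6L, and 0.0150% for each of the other 4. Over the 9 double trisomies together, 12 of the 53 genes were on at least once.

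Double monosomies had a median of 7 genes on (13.2% of the set), with a wide range. The median moved by over 1.5 times when some pairs were left out, from 4.35% without 3L+4L to 23.2% without 6L+9S. Double monosomy 3L+5L had 17, 4L+5L had 15, 3L+4L had 11, 4L+6L had 3, 5L+6L had 2 and 6L+9S had 1. The shares of all silent genes that were on were 0.420%, 0.30%, 0.210%, 0.0600%, 0.0450% and 0.0300% in the same order. In the 6 double monosomies, 35 of the 53 genes were on at least once. Since these genes were selected for being on in some combinations, the counts only restate where the silent genes of the 4 chromosomes were on.

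Where a pair of arms had both a double monosomy and a double trisomy, the double monosomy had more genes on in 5 of 6 pairs. The numbers were 11 against 3 for 3L+4L, 17 against 3 for 3L+5L, 15 against 2 for 4L+5L, 3 against 1 for 4L+6L and 2 against 1 for 5L+6L, and 1 in each for 6L+9S. The summed level of the 53 genes was higher in the double monosomy in all 6 pairs. It was 154.7 against 11.3 FPKM for 4L+5L and 148.3 against 25.4 FPKM for 3L+5L, the 2 widest contrasts, and 16.8 against 7.76 FPKM for 6L+9S, the narrowest in absolute terms. Both members of a pair share their controls. All 3 plants of double monosomy 3L+5L were noted for rib and none of double trisomy 3L+5L was, so tissue and dose cannot be told apart there. Zm00004b010580 alone made up 61.6 FPKM of the sum in double monosomy 3L+5L and 39.6 FPKM of that in double monosomy 4L+5L.

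The 15 combinations of trisomy with monosomy ran from 0 to 17 genes, with a median of 2 (3.77% of the set). Trisomy 3L+monosomy 5L had 17 genes on, trisomy 1L+monosomy 3L and monosomy 3L+trisomy 4L 12 each, trisomy 1L+monosomy 5S 10, and both combinations of 1S+9L 8. The other 9 had between 0 and 4. In some pairs the count differed between the opposite combinations, which differ in both the gained and the lost arm. In 3L+4L it was 12 with monosomy 3L+trisomy 4L and 2 with trisomy 3L+monosomy 4L, and in 1L+5S it was 10 with trisomy 1L+monosomy 5S and 2 with monosomy 1L+trisomy 5S. In 4L+5L it was 4 with monosomy 4L+trisomy 5L and 0 with trisomy 4L+monosomy 5L. It was alike in 1S+9L (8 each), 6L+9S (1 each) and 5L+6L (2 with trisomy 5L+monosomy 6L and 1 with monosomy 5L+trisomy 6L). Plant numbers and rib notes also differed, with 2 plants, 1 of them noted, in monosomy 3L+trisomy 4L and 4 plants without the note in trisomy 3L+monosomy 4L. The background among the silent genes was 0.315% for trisomy 3L+monosomy 5L, 0.285% for trisomy 1L+monosomy 3L, 0.180% for monosomy 3L+trisomy 4L and 0.165% for trisomy 1L+monosomy 5S. It was 0.135% in both combinations of 1S+9L, 0.0900% in trisomy 5L+monosomy 6L, 0.0600% in monosomy 4L+trisomy 5L and 0.0300% in 4 others. Monosomy 5L+trisomy 6L had 0.0150%, and the 2 combinations with no gene on had 0%.

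The tetrasomy combinations had 19 genes on in trisomy 1L+tetrasomy 5S, 8 in tetrasomy 3L+trisomy 5L and 1 in trisomy 4L+tetrasomy 6L, against 4, 3 and 1 in the double trisomies of the same arms. The background shares were 0.420%, 0.135% and 0.0300%. Each of these values is that of a single plant, whereas the double trisomies are means of 3 to 5 plants. A gene on in 1 plant of several is diluted in a mean, so counts from 1 plant and from a mean are not on the same footing.

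**Figure D2:**
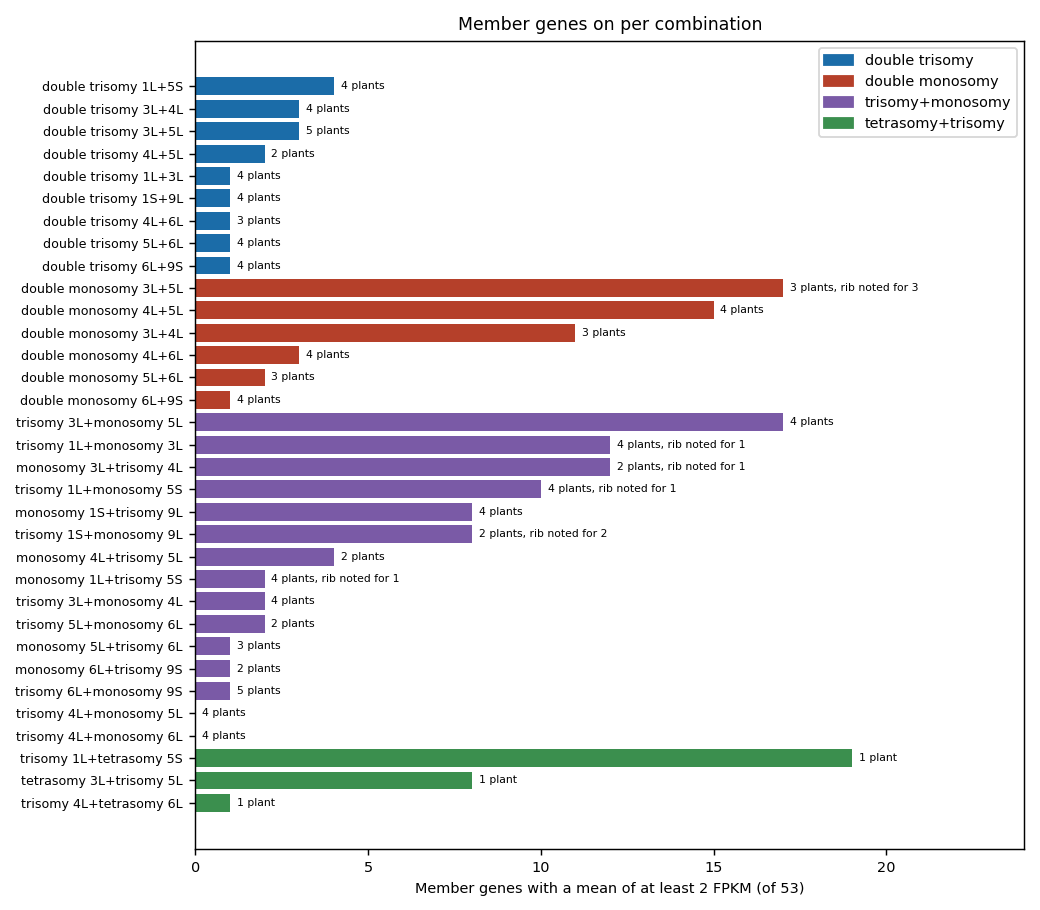
Number of the 53 genes with a mean of at least 2 FPKM in each combination, coloured by class, with the number of plants and the number of plants noted for rib beside each bar. Counts run from 0 to 19, and no double trisomy exceeds 4.

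Loss of an arm accompanied 129 of the 174 on values (74.1%). The share was 75.0% of the 228 on values of all silent genes. These include the 174, so the shares are not independent. A monosomy was present in 21 combinations, which had a median of 3 genes on, while the 12 without any monosomy had a median of 1.5 and the remaining 45 on values. All on combinations included a monosomy for 24 genes, none did for 3 genes, and the other 26 were on in combinations of both kinds. The 3 were Zm00004b007893, Zm00004b010332 and Zm00004b010503, named here after their values were seen. Within the set, 1 gene was on in double trisomies alone, 2 in double monosomies alone and 1 in trisomy with monosomy alone. The rule lowers these numbers, because it leaves out the 54 silent genes on in exactly 1 combination, each of which is on in a single class.

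The 6 combinations with a plant noted for rib had 2 to 17 genes on with a median of 11, and the other 27 had 0 to 19 with a median of 2. Zm00004b018833 had a median of 455 FPKM (115 to 1167) in the 6 and of 783 FPKM (446 to 1425) in the 27. In at least 1 combination with the note 34 of the 53 genes were on, and in none of them 19. Leaving out the 6 combinations, 34 genes still met the rule. In all 7 combinations with the most genes on, 3 of which have the note, Zm00004b018833 lay below the diploid mean of its pair, as it did in 19 of the other 26. Among the 7 without the note it was 500.5 against 736 FPKM in trisomy 1L+tetrasomy 5S, 744 against 926 FPKM in trisomy 3L+monosomy 5L, 689 against 890 FPKM in double monosomy 4L+5L and 446 against 601 FPKM in double monosomy 3L+4L. The part that the tissue taken and the level of the leaf gene have in the counts was not tested.

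Zm00004b010580 (chromosome 2, 237914568 to 237916404 in the W22 coordinates of the files) had the highest levels of the set and was on in the most combinations, 9 from 6 pairs of arms. Its means were 61.6 FPKM in double monosomy 3L+5L, 39.6 in double monosomy 4L+5L, 39.2 in trisomy 1S+monosomy 9L, 33.0 in monosomy 1S+trisomy 9L and 32.4 in monosomy 3L+trisomy 4L. They were 27.8 FPKM in monosomy 1L+trisomy 5S, 15.2 in trisomy 1L+monosomy 5S, 7.87 in trisomy 1L+monosomy 3L and 5.46 in trisomy 3L+monosomy 5L. All 9 combinations lack a copy of an arm, and arms 1L, 1S, 3L, 4L, 5L, 5S and 9L each have a single copy in at least 1 of them. The gene was below 2 FPKM in the other 12 combinations with a monosomy, which include losses of the same arms. It stood at 1.36 FPKM in double monosomy 3L+4L, 0.0939 in trisomy 3L+monosomy 4L, 0.0206 in monosomy 4L+trisomy 5L and 0.0077 in trisomy 4L+monosomy 5L. The highest value below 2 FPKM was 1.47 FPKM in double trisomy 1L+5S, and the highest diploid mean was 0.205 FPKM. The 9 included all 6 combinations with a plant noted for rib and 3 without the note, and it was the only gene of the set on in all 6. In 1S+9L it was high in both combinations labelled with a lost arm and at 0.139 FPKM in the double trisomy. A plant of monosomy 1S+trisomy 9L is the one with opposite karyotypes in the list and the labels. Both plants of trisomy 1S+monosomy 9L were noted for rib, so tissue and loss of 9L cannot be told apart there. An association of the level of Zm00004b010580 with loss of 1S or of 9L is therefore not established.

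**Figure D3:**
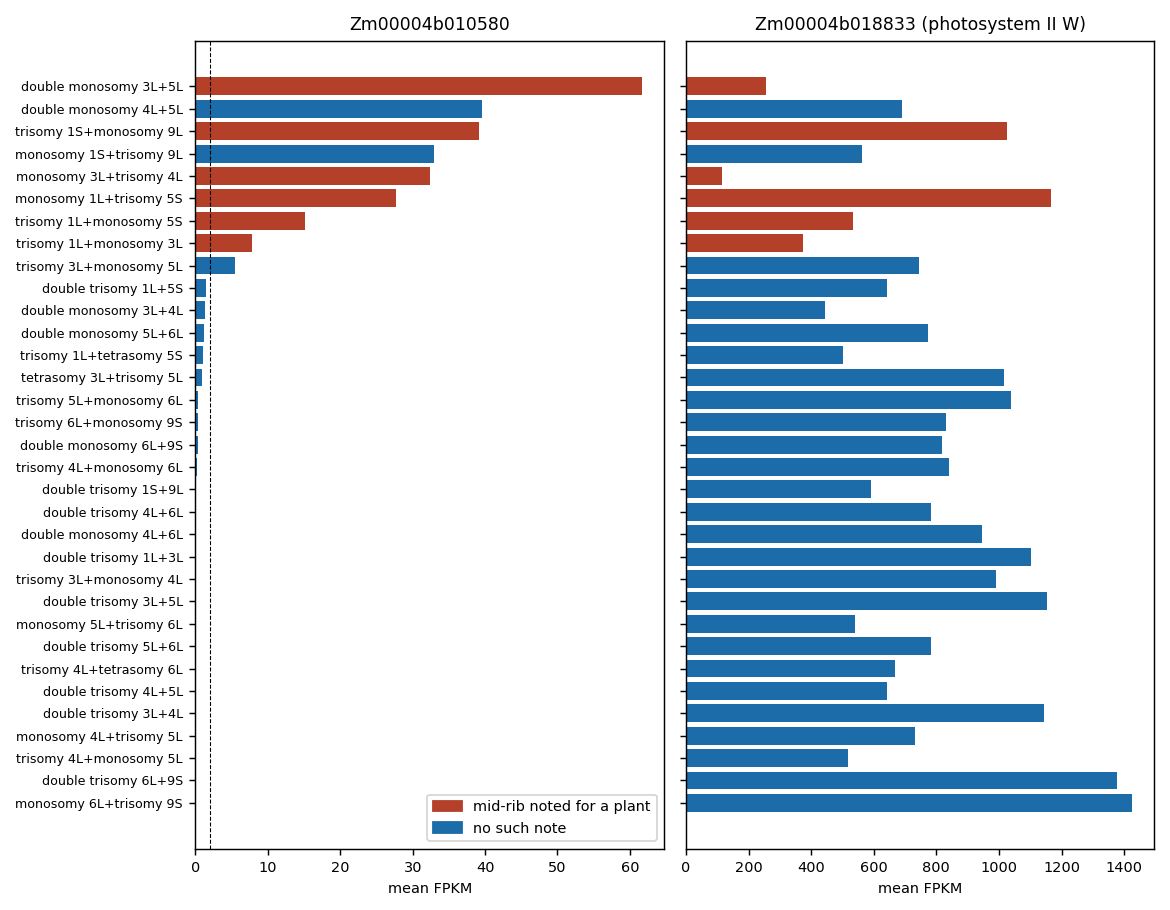
Mean FPKM of Zm00004b010580 (left, dashed line at 2 FPKM) and of the photosystem gene Zm00004b018833 (right) in the 33 combinations, in the order of the first gene. Red bars are combinations in which a plant was noted for rib; the highest bar on the left is 61.6 FPKM in double monosomy 3L+5L.

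In some genes the highest means were those of the combinations that share a change of 1 arm. For 9 of the 53 genes (17.0%), every combination with a gain, or every one with a loss, of some arm lay above all other combinations, against 2.59% of all 14725 genes on the 4 chromosomes. The means that chose the genes also enter this count, so nothing is read from the contrast. These genes were picked out for description after their values were seen, except those that the naming rule holds.

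Zm00004b039963 (chromosome 10, 133146427 to 133146868) was on in all 6 combinations with an additional 5L and was listed at 0 in the other 27. Its means were 6.83 FPKM in tetrasomy 3L+trisomy 5L, 4.35 in monosomy 4L+trisomy 5L, 3.98 in double trisomy 4L+5L, 3.47 in trisomy 5L+monosomy 6L, 3.42 in double trisomy 5L+6L and 3.11 in double trisomy 3L+5L. The groups did not overlap, and the 6 values spanned little more than a factor of 2. Among the diploid means it was above 0 only in the controls of 5L+6L, at 0.377 FPKM, the pair in which 1 of 4 controls carried a B-A translocation of 5L.

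A gain of 3L was shared by the activations of Zm00004b024701 (chromosome 8, 5525378 to 5525922) and Zm00004b007313 (chromosome 2, 46042191 to 46045271). Zm00004b024701 stood at 13.3 FPKM in tetrasomy 3L+trisomy 5L, 9.58 in trisomy 3L+monosomy 5L, 8.33 in double trisomy 3L+5L, 5.47 in double trisomy 3L+4L and 3.60 in trisomy 3L+monosomy 4L. It was listed at 0 in the remaining 28 combinations, among them double trisomy 1L+3L, which also has the additional arm. Its only diploid mean above 0 was 0.203 FPKM, in the controls of 3L+5L. Zm00004b007313 was above 0 in exactly the 6 combinations with a gain of 3L, from 1.34 FPKM in double trisomy 1L+3L to 2.83 FPKM in tetrasomy 3L+trisomy 5L, and 4 of the 6 reached 2 FPKM. Its only diploid mean above 0 was 0.172 FPKM, in the controls of 3L+4L, and the karyotype list has no translocation carrier among the controls of either pair. These genes were on together in 4 of the 5 combinations in which either was on, although they lie on different chromosomes.

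Similar patterns were seen with gains of other arms. Zm00004b008180 on chromosome 2 stood at 9.30 FPKM in double trisomy 1S+9L and 3.57 FPKM in trisomy 1S+monosomy 9L, and its next mean was 0.153 FPKM. Its highest diploid mean was 0.118 FPKM, in the controls of 4L+5L. Zm00004b009749 on chromosome 2 stood at 3.53 FPKM in monosomy 6L+trisomy 9S and 2.37 FPKM in double trisomy 6L+9S, and was listed at 0 in the other 31. Zm00004b010332 on chromosome 2 ranged from 0.823 to 2.51 FPKM in the 5 combinations with a gain of 1L and did not exceed 0.0525 FPKM in the other 28. Its highest diploid mean, 0.426 FPKM, was in the controls of 1L+3L, all of which carried a B-A translocation of 1L without a change of dose. For Zm00004b009749 the controls of 6L+9S, 1 of which carried the translocation of 9S, were listed at 0. Its only diploid mean above 0 was 0.160 FPKM, in the controls of 3L+4L. In every combination with a gain, the additional arm came on a B-A translocation. Among these combinations dose and translocation chromosome cannot be told apart. Some controls carried a translocation without a change of dose, and their levels are known only as group means. Plants with a lost arm came from the same translocation crosses. The part of the translocation chromosome was not tested.

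Losses of an arm showed the same kind of pattern with less clean edges. The adjacent genes Zm00004b007954 (104569331 to 104573563) and Zm00004b007955 (104574295 to 104575514) on chromosome 2, 732 bases apart, were on in exactly the 4 combinations with monosomy 3L. All of these but double monosomy 3L+4L include a plant noted for rib, and the part of the tissue was not tested. Zm00004b007954 stood at 13.0 FPKM in double monosomy 3L+4L, 7.40 in trisomy 1L+monosomy 3L, 3.72 in double monosomy 3L+5L and 3.68 in monosomy 3L+trisomy 4L. For Zm00004b007955 the means were 12.4, 10.2, 2.76 and 3.92 FPKM in the same combinations. Their next values were 1.79 and 1.89 FPKM, both in monosomy 1S+trisomy 9L, and the diploid means did not exceed 0.308 and 0.309 FPKM. No other members were next to each other in the gene order.

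For Zm00004b038312 and Zm00004b039019 on chromosome 10, the highest means were those of the combinations with monosomy 4L. Zm00004b038312 stood at 8.62 FPKM in double monosomy 4L+6L, 4.63 in monosomy 4L+trisomy 5L, 3.72 in trisomy 3L+monosomy 4L, 1.40 in double monosomy 4L+5L and 0.843 in double monosomy 3L+4L, with 0.774 FPKM as the highest value elsewhere. Zm00004b039019 ranged from 1.45 to 3.66 FPKM in the same 5 combinations and reached 0.922 FPKM elsewhere. The gaps between the groups were therefore small for both, and 3 of the 5 values of each passed 2 FPKM.

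**Figure D4:**
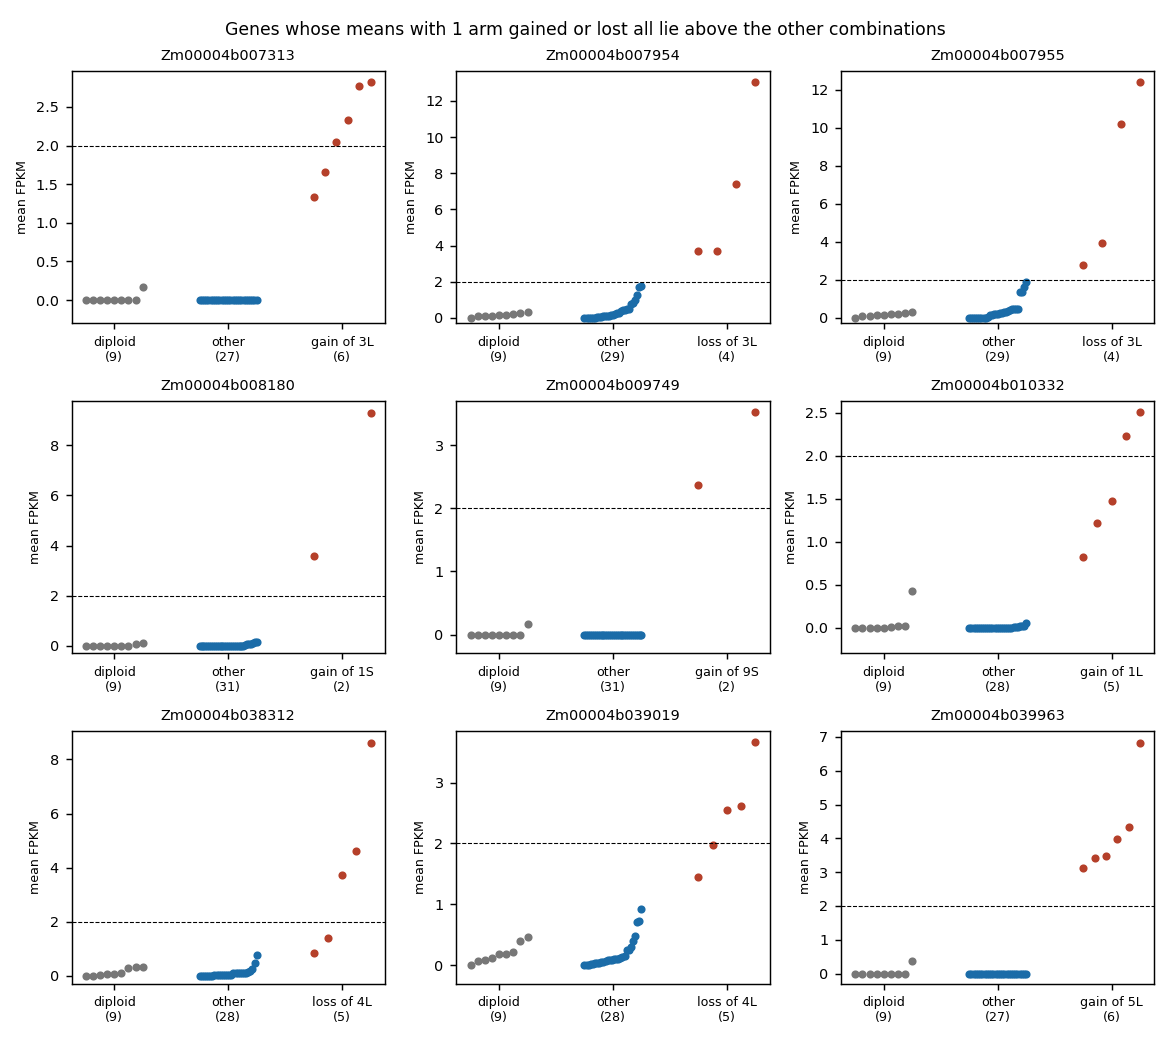
Mean FPKM of the 9 genes for which all combinations with a gain or loss of an arm (red) lie above all other combinations (blue), with the 9 diploid means in grey; each point is a group mean, numbers of groups are in parentheses, and the dashed line marks 2 FPKM. For Zm00004b039963 the 6 red points lie from 3.11 to 6.83 FPKM and all 27 blue points are at 0.

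To see which genes came on together, genes were linked where the overlap of their on combinations (those in which both were on, divided by those in which either was) was at least 0.5. This gave 22 pattern groups, 17 of them a single gene, 1 of 2 genes and 4 of 3 or more, which held 34 of the 53 genes. At this overlap, 36 genes were thus linked to at least 1 other and 17 stood alone, and both numbers depend on the overlap chosen. In combinations of at least 2 pairs of arms 48 of the 53 genes were on, 24 of them in 2 pairs, 15 in 3, 8 in 4 and 1 in 6. The rule asks for at least 2 combinations, and among all 107 silent genes that were on at least once the share in 2 or more pairs was 44.9%.

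The largest pattern group had 20 genes, chained by overlaps rather than alike throughout. Of these, 12 were on in trisomy 1L+tetrasomy 5S, 11 in trisomy 3L+monosomy 5L, 9 each in double monosomies 3L+5L and 4L+5L, and 7 in monosomy 3L+trisomy 4L. Its most widely expressed members were Zm00004b009840 and Zm00004b027004, each on in 7 combinations and together in 6 of the 8 in which either was on. Zm00004b009840 reached 6.23 FPKM in trisomy 1L+tetrasomy 5S and 5.33 FPKM in trisomy 1L+monosomy 5S, and Zm00004b027004 reached 6.63 FPKM in trisomy 1S+monosomy 9L and 4.88 FPKM in monosomy 1S+trisomy 9L. Zm00004b008168 had the highest mean of any member in the double trisomies, 13.9 FPKM in 1L+5S, and in the tetrasomy combinations, 13.3 FPKM in trisomy 1L+tetrasomy 5S. It stood at 5.11 FPKM in trisomy 1L+monosomy 3L, 2.14 FPKM in trisomy 1L+monosomy 5S and 1.26 FPKM in double trisomy 1L+3L, and was on without a gain of 1L only in double monosomy 3L+5L (2.73 FPKM) and trisomy 3L+monosomy 5L (2.60 FPKM).

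High values in that group were concentrated in double monosomy 4L+5L. There Zm00004b036999 stood at 14.9 FPKM, Zm00004b038331 at 13.3, Zm00004b039106 at 13.3 and Zm00004b009615 at 12.5 FPKM. Each was on elsewhere, at 12.2 FPKM in trisomy 3L+monosomy 5L for Zm00004b036999 and at 6.10 FPKM in monosomy 1S+trisomy 9L for Zm00004b038331. Zm00004b009615 stood at 4.87 FPKM in trisomy 3L+monosomy 5L, 4.55 in double monosomy 3L+5L and 3.12 in trisomy 1L+tetrasomy 5S. Zm00004b024679 was instead highest in monosomy 3L+trisomy 4L, at 10.4 FPKM, and on besides only in trisomy 1L+tetrasomy 5S at 5.96 FPKM.

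The loci Zm00004b039106, Zm00004b039110 and Zm00004b039112 of that group lie within a stretch of chromosome 10 from 94377755 to 94657893 and have the same span of 313 bases. Their means in double monosomy 4L+5L were 13.3, 7.13 and 2.25 FPKM, and in trisomy 3L+monosomy 5L 4.19, 3.87 and 3.68 FPKM. In monosomy 1S+trisomy 9L the first and second were on, at 3.56 and 2.75 FPKM. Loci of equal span so close together may be copies whose reads the counting could not assign with certainty, and their sequences were not examined. A longer gene between them, Zm00004b039111, stood at 15.3 FPKM in trisomy 3L+monosomy 5L and 2.86 FPKM in double monosomy 4L+5L, and missed the set through a diploid mean of 0.546 FPKM in the controls of 3L+5L. It was singled out after its values were seen.

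The pattern group next in size had 8 genes, all of them on in double monosomy 3L+4L, 6 in trisomy 1L+monosomy 3L, 4 in double monosomy 3L+5L and 3 in double monosomy 4L+5L. It includes the adjacent pair on chromosome 2. Of the 2 groups of 3 genes, one held Zm00004b024701 and Zm00004b007313 together with Zm00004b007893, all on in double trisomy 3L+4L and tetrasomy 3L+trisomy 5L. The other held Zm00004b038312 and Zm00004b039019 together with Zm00004b025115, all on in double monosomy 4L+6L.

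Some widely expressed genes stood alone in the grouping. Zm00004b038124 on chromosome 10 was on in 7 combinations, at 7.48 FPKM in trisomy 1L+tetrasomy 5S, 7.11 in trisomy 1L+monosomy 3L, 6.92 in monosomy 1S+trisomy 9L and 4.68 in trisomy 1S+monosomy 9L, and between 2.12 and 2.28 FPKM in the other 3. Zm00004b037019 on chromosome 7 was on in 6, from 2.06 FPKM in double monosomy 3L+4L to 4.56 FPKM in trisomy 1L+tetrasomy 5S. Zm00004b025074 on chromosome 8 was on in a single pair of arms. It stood at 25.0 FPKM in trisomy 5L+monosomy 6L, 6.65 in double monosomy 5L+6L and 3.99 in monosomy 5L+trisomy 6L, all of the pair 5L+6L, and at 1.86 FPKM in trisomy 4L+monosomy 5L. In double trisomy 5L+6L it stood at 0.0442 FPKM.

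Combinations of different pairs have separate controls. Among the 11 combinations with 8 or more genes on there are 49 such pairings, which had 0 to 8 genes in common. In 5 of the 49 the genes in common were over 50% of the shorter list, and the highest share was 62.5%. Monosomy 1S+trisomy 9L and double monosomy 4L+5L, which reached it, had 5 in common, 62.5% of the 8 in the former and 33.3% of the 15 in the latter. Trisomy 1L+tetrasomy 5S and double monosomy 3L+5L had 8 in common, 42.1% of the 19 in the former and 47.1% of the 17 in the latter. Of all silent genes, 28 were on in each of these combinations. Trisomy 3L+monosomy 5L and double monosomy 4L+5L had 7 in common, 41.2% and 46.7% of their genes. Trisomy 1L+monosomy 3L and double monosomy 3L+4L, which share the loss of 3L, had 6 in common, of 12 and 11. Trisomy 1L+monosomy 3L and double monosomy 3L+5L had 7 in common, 58.3% and 41.2%. The rule leaves out silent genes on in exactly 1 combination, which raises all shares of this kind, so nothing is read from them.

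Beyond the choice of the 4 chromosomes, the rule used neither position nor length, and both were close to those of the silent genes there. Chromosome 2 held 20 of them, chromosome 8 held 13, chromosome 10 held 11 and chromosome 7 held 9, which was 0.883%, 0.785%, 0.768% and 0.684% of the silent genes of each. The median locus span was 1615 bases for the 53 genes, 1668 bases for all 6669 silent genes and 2773 bases for all genes of the 4 chromosomes. Spans under 1000 bases made up 32.1% of the set and 33.6% of the silent genes. No other gene of the tables overlapped a member.

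The same limits gave 93 genes on chromosomes 1, 3, 4, 5, 6 and 9, which carry the varied arms, or 0.803% of the 11582 silent genes there. For 19 of the 93 all combinations with a gain or a loss of some arm lay above all others. For 12 of these it was a gain of an arm of their own chromosome. The share over all genes of these chromosomes is not given here, and some of the genes can lie on a varied arm, so nothing is read from these counts. In the opposite direction, no gene of chromosomes 2, 7, 8 and 10 had a diploid mean of at least 2 FPKM and all 33 combinations below 0.5 FPKM. There are 33 aneuploid means and 9 diploid means, so the limits are not equally hard to meet in both directions.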

How the data were processed

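Leaf libraries were depleted of rRNA. The authors cleaned the reads with fastp, discarded those of the organelles, mapped with STAR against W22 plus the B chromosome, and compared every combination with the diploids of its pair in Cuffdiff. Program versions are not given in the sources used here. The 9 deposited tables hold group means in FPKM for 41448 genes. Whether each plant entered its mean is not recorded. The authors' fold changes, p-values and q-values are also in the tables and were not used. The tables give no library depth, count or value per plant, so no interval or test was computed.

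Groups came from the sample titles. Means were compared with the limits as deposited, without a pseudocount, in Python 3.11.15 with pandas 2.3.3 and numpy 2.4.6, after the procedure was tested on simulated data. Alternatives were other limits, scalings and sets of combinations. The members, lists and limits were chosen with earlier results of these data known. Genes are named if they were among the 10 on in most combinations or the 10 with the highest mean, adjacent in the gene order, highest in a class, nearest the limits, or in the 3 most alike pairs among genes on in at least 4 combinations. The others named for a gain or loss of an arm or for a pattern group were chosen after their values were seen.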

Additional observations from a re-analysis of the deposited data

How the results depend on the processing

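The number of genes depended mainly on the limits. It was 3 with a silent limit of 0.1 FPKM and 138 with 1 FPKM, 162 with an on limit of 1 FPKM and 12 with 5 FPKM, and 107 or 28 when at least 1 or 3 combinations had to be on. It was 34 without the combinations with a plant noted for rib. Under the other 15 alternatives (equal sums, division by the median ratio of genes on the 4 chromosomes, a fold of at least 8 with a pseudocount of 0.1 FPKM, no tetrasomy, each pair left out, loci of at least 1000 bases, flagged rows as missing) it stayed between 36 and 59. The median share on in double trisomies was 5.56% with an on limit of 1 FPKM, and 4.24%, 5.10% and 4.46% without the pairs 1L+3L, 1L+5S and 6L+9S. In double monosomies and in tetrasomy combinations it was 33.3% with the silent limit of 0.1 FPKM, which left 3 genes. With single pairs left out, the double monosomy median ran from 4.35% (without 3L+4L) and 6.67% (without 4L+5L) to 21.8%, 22.6% and 23.2% (without 4L+6L, 5L+6L and 6L+9S). That of trisomy with monosomy was 7.63%, 8.16%, 7.55%, 7.14% and 10.0% without 1L+3L, 1L+5S, 5L+6L, 6L+9S and 3L+5L, and that of the tetrasomy combinations 25.5% and 27.3% without 3L+5L and 4L+6L. The share of genes on in at least 2 pairs of arms was 100% with that limit, 44.9% with at least 1 combination and 96.4% with at least 3, the first of which adds genes that can be on in only 1 pair. The largest pattern group had 48 genes with an overlap of at least 0.3 and 4 with at least 0.7, so its size of 20 rests on the chosen overlap. The cause of the other changes was not tested. No paired analysis was possible because the tables hold only group means, and for the same reason no plant could be left out. The tables hold no depth per library, so a mean of 0 cannot be told from a low level.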
